A study of Mus musculus with 18 samples.

Results

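The low-affinity and high-affinity receptors for the Fc part of immunoglobulin G, the neonatal Fc receptor and the shared adaptor FCER1G were followed in microglia purified from mouse striatum. The 6 genes, Fcer1g, Fcgr1, Fcgr2b, Fcgr3, Fcgr4 and Fcgrt, were taken by symbol from the 55536 genes of the count table, and all 6 were found and passed the filter on low counts in every comparison. The samples came from WT mice (n = 5), from mice lacking Tyrobp (Tyrobp-KO, n = 3), from mice with the Q175 allele (n = 5) and from Q175 mice lacking Tyrobp (Q175;Tyrobp-KO, n = 5), all C57BL/6 (C57Bl6/J in the study's methods). Per the study's methods, Q175 mice are heterozygous for an expanded huntingtin allele and serve as a model of Huntington's disease, the knockout mice are Tyrobp-/-, and tissue was taken from adult mice. Dissociated striatal cells were bound through CD11b to magnetic beads, and since other myeloid cells also carry CD11b, the selection could keep them. The WT group held 1 female and 4 males, Tyrobp-KO 2 females and 1 male, Q175 4 females and 1 male, and Q175;Tyrobp-KO 2 females and 3 males, so that genotype and sex were not balanced.

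Receptors for IgG let phagocytes bind antibody-coated targets. FCGR1, FCGR3 and FCGR4 are the activating receptors of the mouse, and each reaches the surface and signals together with a dimer of FCER1G, a small membrane adaptor with an ITAM, the tyrosine motif that recruits the kinase SYK. TYROBP, also called DAP12, is a related ITAM adaptor that serves other receptors such as TREM2. FCGR2B carries an inhibitory motif (ITIM) in its own tail and opposes the activating receptors, whereas FCGRT pairs with beta-2-microglobulin (B2M) and recycles IgG inside the cell. The comparisons asked how the transcripts of this set stood when the related adaptor was deleted, with and without the Q175 allele.

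4 of the genes lie together on chromosome 1 of GRCm38: Fcgr2b (170958617 to 170976547, minus strand), Fcgr4 (171018920 to 171029761, plus strand), Fcgr3 (171051174 to 171064935, minus strand) and Fcer1g (171229572 to 171234365, minus strand). Fcgr1 lies on chromosome 3 (96282909 to 96293969, minus strand) and Fcgrt on chromosome 7 (45092990 to 45103851, minus strand). Counts were summed over exons, which covered 874 bp for Fcer1g, 1256 bp for Fcgr4, 1736 bp for Fcgr3, 2102 bp for Fcgrt, 2589 bp for Fcgr1 and 5790 bp for Fcgr2b. Fcgr3 and Fcgr2b are near relatives, and 9.58% of the 50-base words of Fcgr3 exons also occur in Fcgr2b, so that a small share of their reads could have been set aside or assigned to the other gene. No 50-base word of Fcer1g, Fcgr1, Fcgr4 or Fcgrt occurred in another gene.

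The start-site windows of the adaptor and the 3 activating receptors are shown because Fcgr1, unlike Fcgr3 and Fcgr4, did not follow the adaptor across samples, as described further on. Each runs from 250 bases before to 50 bases after a transcription start in RefSeq's annotation of GRCm38.p6, which listed all 6 genes and gave Fcgr3 2 overlapping windows, of which 1 is shown. Capitals mark matches on either strand to TTCNNNGAA (the GAS motif, named for activation by interferon gamma) and GAGGAA (a core of PU.1 sites), and no match overlapped another.
Fcer1g, chr1:171234300-171234599, minus strand: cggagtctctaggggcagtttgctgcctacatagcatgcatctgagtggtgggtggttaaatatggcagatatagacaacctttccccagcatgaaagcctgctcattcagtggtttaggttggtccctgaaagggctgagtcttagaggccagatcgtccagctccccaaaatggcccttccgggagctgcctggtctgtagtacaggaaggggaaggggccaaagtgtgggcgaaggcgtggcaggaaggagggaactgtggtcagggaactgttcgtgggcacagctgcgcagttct
Fcgr1, chr3:96293920-96294219, minus strand: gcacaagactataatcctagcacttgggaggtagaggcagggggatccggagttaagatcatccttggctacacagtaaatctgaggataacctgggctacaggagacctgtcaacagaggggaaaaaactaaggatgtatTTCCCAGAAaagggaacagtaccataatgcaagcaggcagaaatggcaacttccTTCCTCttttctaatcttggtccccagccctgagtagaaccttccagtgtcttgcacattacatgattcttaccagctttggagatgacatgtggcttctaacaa
Fcgr3, chr1:171059354-171059653, minus strand: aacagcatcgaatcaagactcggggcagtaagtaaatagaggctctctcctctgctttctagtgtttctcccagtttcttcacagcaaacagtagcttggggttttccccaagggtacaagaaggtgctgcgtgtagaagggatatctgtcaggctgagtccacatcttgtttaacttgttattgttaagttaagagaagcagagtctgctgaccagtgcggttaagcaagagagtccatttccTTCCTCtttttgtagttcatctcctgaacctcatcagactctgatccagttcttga
Fcgr4, chr1:171018676-171018975, plus strand: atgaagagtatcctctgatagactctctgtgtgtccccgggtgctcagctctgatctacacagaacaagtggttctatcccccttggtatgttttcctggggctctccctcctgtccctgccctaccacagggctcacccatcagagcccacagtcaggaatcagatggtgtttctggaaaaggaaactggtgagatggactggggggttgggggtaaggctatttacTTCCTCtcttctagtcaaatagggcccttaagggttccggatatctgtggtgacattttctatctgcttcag
The Fcgr1 window held 1 GAS match, 109 to 101 bases before the start, and 1 PU.1 core match. The Fcgr3 window held a PU.1 core match directly before the start, and the Fcgr4 window 1 PU.1 core match, 22 to 17 bases before it. The windows of Fcer1g, Fcgr2b and Fcgrt held neither. Of all 32851 windows of this length, 8.30% held the GAS letters and 28.3% the PU.1 core. These are matches of letters and say nothing of binding in these cells. Their part in how the genes varied over the samples was not tested.

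Library totals ranged from 11260410 to 29771983 counts assigned to genes. Tyrobp was at 196 to 475 CPM (counts scaled to library size with TMM normalisation, the level used throughout unless stated) in WT and at 213 to 368 CPM in Q175, against 17.5 to 21.3 CPM in Tyrobp-KO and 9.90 to 14.6 CPM in Q175;Tyrobp-KO, so that the 8 samples labelled as lacking Tyrobp were all far below the other 10. All 20 microglial markers were at 1 CPM or more in all 18 samples. Transcripts of other cells were present too: the mean level of 15 astrocyte markers (mean of log2(CPM + 1), turned back to CPM) was 31.6 CPM in WT and 73.5 CPM in Q175 (25 of 25 sample pairs higher in Q175, exact permutation p = 0.00794, adjusted p = 0.286 over 36 marker comparisons). In bulk RNA, fewer cells of a type and less RNA per cell cannot be told apart. Of 8 genes of the B cell and plasma cell list, 3 were at 1 CPM or more in all 18 samples, and Fcer1a, which marks mast cells, had at most 1 count in any sample.

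Per length, the adaptor and Fcgr3 stood far above the other genes (plot of level per length). The mean over 18 samples was 297 ± 89.8 CPM per exonic kb (SD) for Fcer1g and 276 ± 62.7 for Fcgr3, followed by Fcgr1 at 64.5 ± 11.3, Fcgr2b at 29.3 ± 4.38, Fcgrt at 17.96 ± 4.54 and Fcgr4 at 8.61 ± 4.12. Fcer1g ranked 66th and Fcgr3 ranked 69th of the 18613 genes with at least 1 CPM in some sample, next to Tyrobp at 70 over all 18 samples, the deleted ones included, whereas Fcgr4 ranked 4862nd. Fcer1g exceeded Fcgr3 in 9 of 18 samples, so that these neighbours had no fixed order. Every other step in the order held in all 18 samples, except that Fcgrt exceeded Fcgr4 in 15 of 18. Counting length over the principal transcript in place of all exons left this order as it was, with Fcer1g above Fcgr3 in 10 samples and Fcgrt above Fcgr4 in 17.

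**Figure D1:**
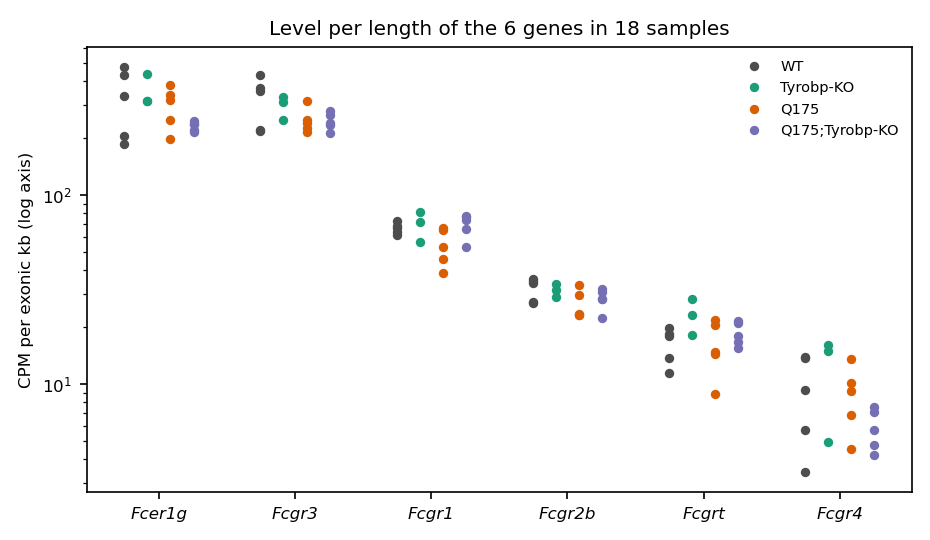
Level of each of the 6 genes in CPM per exonic kb on a log axis, with 1 point per sample coloured by group. Fcer1g and Fcgr3 overlap at the top, Fcgr1 exceeds Fcgr2b in all 18 samples, and Fcgr4 spreads widest, from 3.41 to 15.97 CPM per exonic kb.

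None of the 6 genes passed the threshold of 10% FDR in any of the 6 comparisons (edgeR's quasi-likelihood test, Benjamini-Hochberg adjustment over all genes tested). The share of all tested genes called was 0.0222% in Tyrobp-KO against WT, 0.0111% in Q175;Tyrobp-KO against Q175 and 0.199% for the mean effect of Tyrobp deletion over both backgrounds (37 genes, but 592 without Tyrobp-KO replicate 20, 83 without Q175 replicate 17, and 22 to 45 without any other single sample). Tyrobp-KO replicate 20 had the highest short-transcript level of all samples (5.90) and the lowest TMM factor (0.788). Its standardised score of astrocyte, neuron and oligodendrocyte markers was 1.23, against -0.59 and -0.51 in Tyrobp-KO replicates 15 and 19. The transcripts Gm42418 and Gm26917 held 28.5% of its counts, against 14.8% and 11.7% in those replicates and at most 29.5% in any sample. The share called was 0% in Q175 against WT, in Q175;Tyrobp-KO against Tyrobp-KO and for the interaction of Q175 and Tyrobp-KO. An unadjusted p under 0.05 was reached by 1140 (6.24%), 2343 (13.2%) and 1118 genes (6.01%) in those last 3 comparisons, and by 8.01% of genes in Q175;Tyrobp-KO against Q175, and DESeq2 called 234, 680 and 2 genes in those 3. The values below are therefore levels and differences with their intervals. Each edgeR p-value sets a difference against the variation between samples, and each exact permutation p-value ranks it among relabellings of the samples. Tyrobp-KO against WT and Q175 against WT share the WT samples, and each other group also enters more than 1 comparison.

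**Figure D2:**
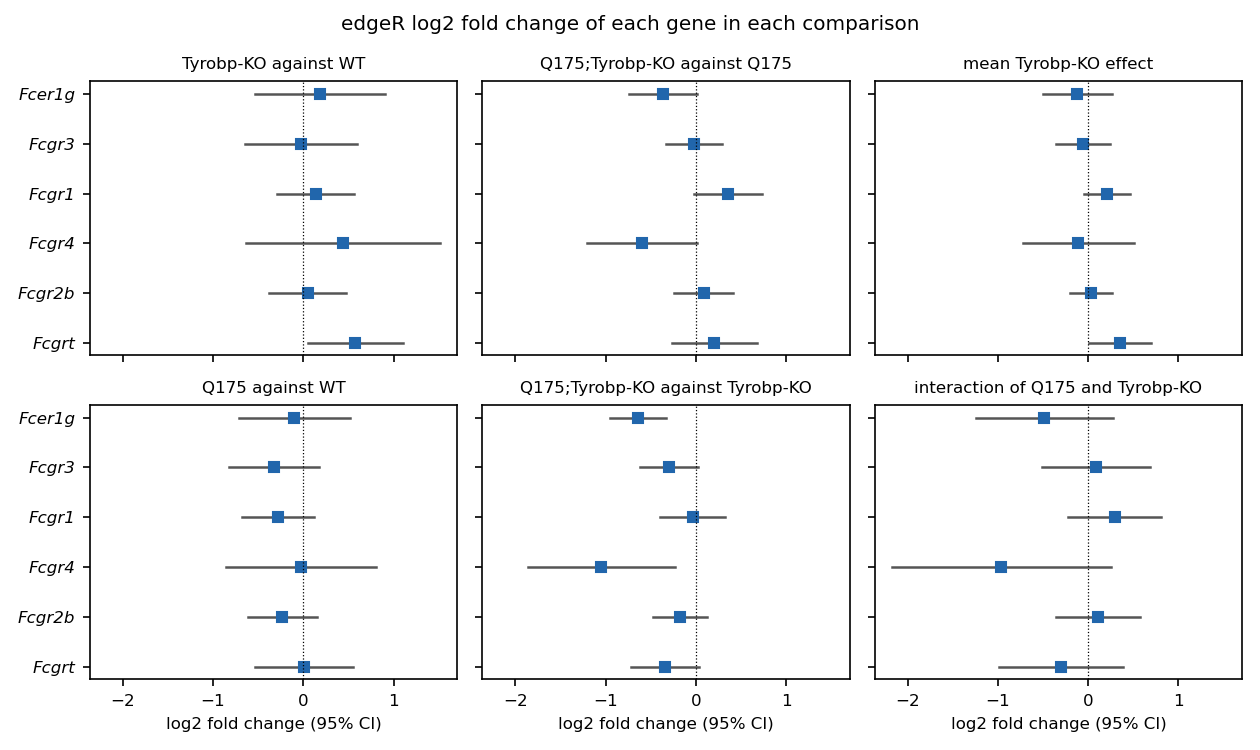
Log2 fold change of each gene (squares) with its 95% confidence interval (lines) from edgeR in each comparison. The intervals that leave out 0 are those of Fcer1g and Fcgr4 in Q175;Tyrobp-KO against Tyrobp-KO and of Fcgrt in Tyrobp-KO against WT and in the mean effect, none of which passed 10% FDR.

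Fcer1g, the adaptor, was at 378, 293, 415, 180 and 162 CPM in the 5 WT samples and at 275, 274 and 384 CPM in the 3 Tyrobp-KO samples. It was at 217, 280, 173, 297 and 335 CPM in Q175 and at 189, 215, 207, 193 and 207 CPM in Q175;Tyrobp-KO. The WT samples fell into a high set of 3 and a low set of 2, while the 5 Q175;Tyrobp-KO samples lay within a narrow band, with a coefficient of variation of 5.41% against 20.4% to 39.8% in the other groups. Deletion of Tyrobp on the WT background left the groups overlapping, with a log2 fold change of 0.19 ± 0.32 (SE; 95% CI -0.53 to 0.91; adjusted p = 0.999). A rise of the related adaptor by more than 1.88-fold, or a drop below 0.692-fold, lies outside that interval. Scaling by microglial markers, which moved the median of all genes from 0.02 to -0.34, turned this value to -0.16. On the Q175 background the difference was -0.36 ± 0.17 (95% CI -0.74 to 0.01; adjusted p = 0.533), and 5 of 25 sample pairs were higher in Q175;Tyrobp-KO. Other settings moved this value between -0.67 (scaling by microglial markers) and -0.17 (short-transcript level as a term, described below).

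The Q175;Tyrobp-KO samples were all below the Tyrobp-KO samples for Fcer1g, at 189 to 215 CPM against 274 to 384 CPM. The log2 fold change was -0.64 ± 0.14 (95% CI -0.95 to -0.33), a level of 0.642-fold, with an adjusted p of 0.291 by edgeR, and it ranked 37th by p among 17723 genes. This was the single pair of groups without overlap among the 24 compared for the 6 genes. Of all genes, 9.71% had no overlap here, against 4.53% in Tyrobp-KO against WT, 0.876% in Q175;Tyrobp-KO against Q175 and 1.08% in Q175 against WT. The counts left at the deleted Tyrobp gene also did not overlap here, at 9.90 to 14.6 CPM against 17.5 to 21.3 CPM. Their log2 fold change was -0.61 ± 0.15 (adjusted p = 0.291 by edgeR), near that of Fcer1g. An exact permutation test gave p = 0.0357, the smallest that 3 samples against 5 allow, and an adjusted p of 0.343 over 24 tests. DESeq2 called Fcer1g here (adjusted p = 0.00658), as it did 3.84% of all genes. Leaving out each sample in turn gave -0.71 to -0.46, and none of these 8 fits passed 10% FDR (adjusted p = 0.256 to 0.547). The interaction, which asks whether the effect of Tyrobp deletion differed between backgrounds, was -0.49 ± 0.36 (95% CI -1.25 to 0.27; adjusted p = 0.733).

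**Figure D3:**
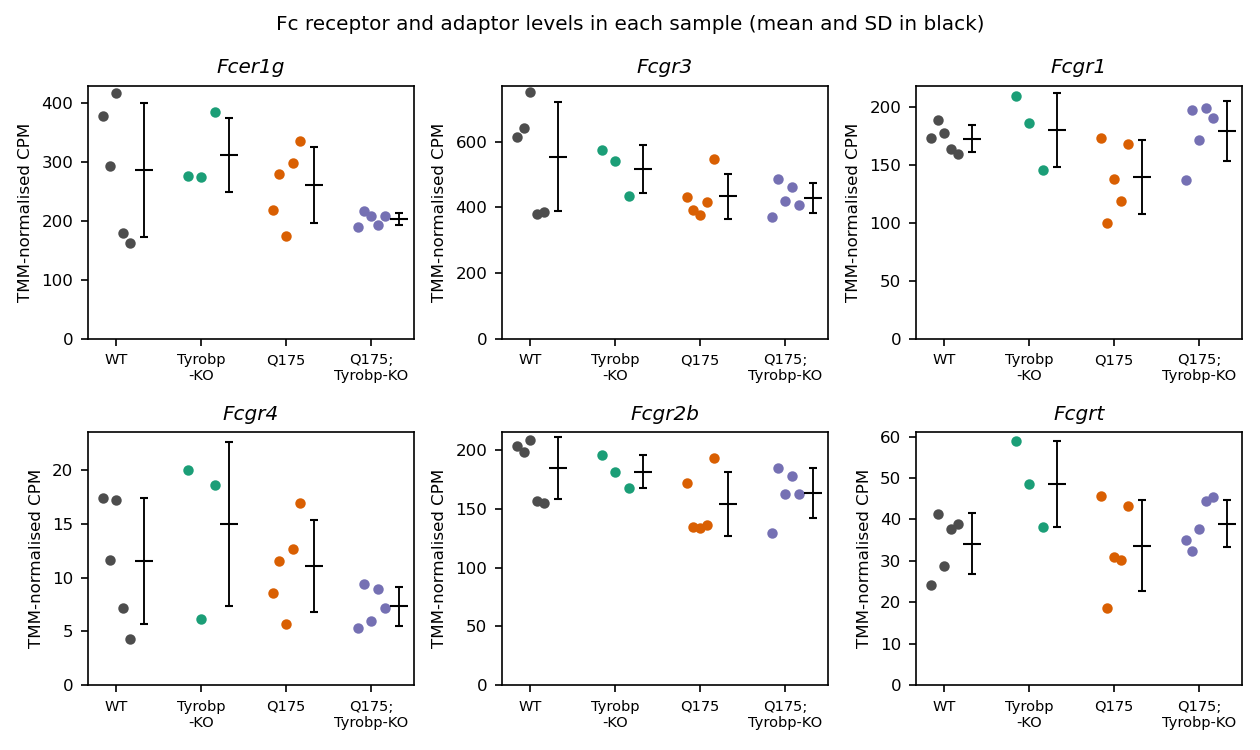
TMM-normalised CPM of each gene in each of the 18 samples, by group on an axis from 0, with the mean and SD beside the points. Fcer1g at 189 to 215 CPM in Q175;Tyrobp-KO lies below the 3 Tyrobp-KO samples, WT samples split into high and low sets for Fcer1g, Fcgr3 and Fcgr2b, and the groups of Fcgr1 overlap.

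Fcer1g also moved with the level of short transcripts in a sample. Its level followed the mean log2 level of 168 genes with less than 1000 exonic bases, a measure of short transcripts that left out the 6 genes and Tyrobp, with Pearson's r = 0.85 (permutation p = 1e-05, the smallest 100000 permutations give) and Spearman's rho = 0.87 (p = 1e-05) over 18 samples. The adjusted p was 7.67e-05 over 23 relations, r was 0.80 without the 2 samples farthest from the median, and 0.84 within groups. Fcgr4 followed it too (r = 0.70, permutation p = 0.00113, adjusted p = 0.00371; rho = 0.66, permutation p = 0.00381; r = 0.57 without the 2 farthest), and Fcgr1 did not (r = -0.35, permutation p = 0.153; rho = -0.27, permutation p = 0.284; r = -0.40 without the 2 farthest). The short-transcript level was 5.19 ± 0.62 (SD, n = 3) in Tyrobp-KO and 4.72 ± 0.27 (SD, n = 5) in Q175;Tyrobp-KO. With that level as a term, a fit added after seeing this relation, Fcer1g was -0.50 ± 0.13 (adjusted p = 0.0710) and Fcgr3 -0.47 ± 0.11 (adjusted p = 0.0488) in Q175;Tyrobp-KO against Tyrobp-KO, in a fit that called 10.2% of all genes. The part of short transcripts in the values of Fcer1g was not tested beyond that fit. Whether the short-transcript level reflects the making of the libraries or the cells themselves was not tested.

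**Figure D4:**
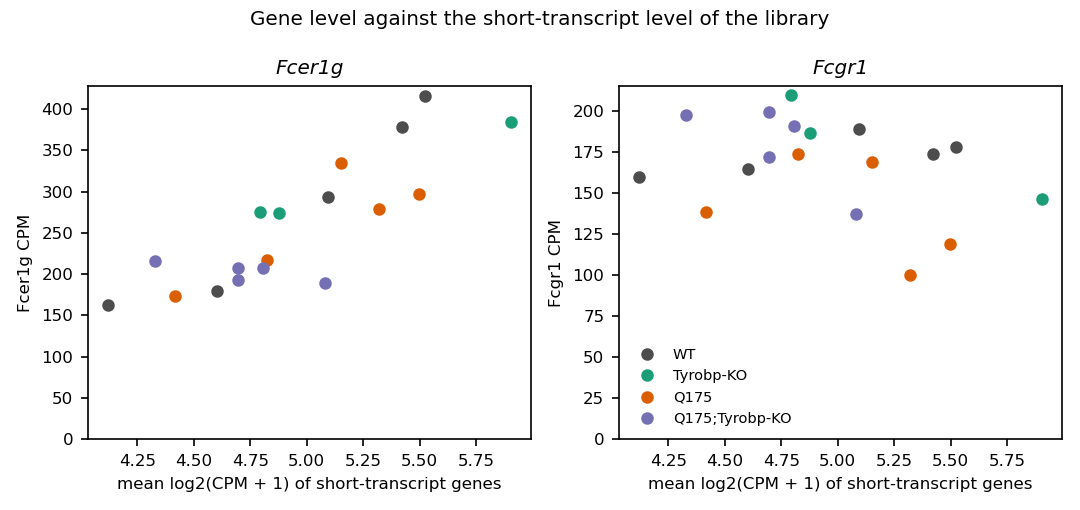
CPM of Fcer1g (left) and Fcgr1 (right) against the mean log2(CPM + 1) of 168 genes with short transcripts, with 1 point per sample coloured by group. Fcer1g rises with the short-transcript level (r = 0.85) and Fcgr1 does not (r = -0.35).

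Of the 10056 genes with a mean of at least 10 CPM, those whose log2 level was most like that of Fcer1g over the 18 samples were Tmsb4x (r = 0.99), which sequesters actin, Atp6v1g1 (r = 0.98), a subunit of the vacuolar proton pump, Ms4a6d (r = 0.98), Srgn (r = 0.98), the granule proteoglycan serglycin, and Eif4a2 (r = 0.97), a translation factor. Their exons cover 1135 to 5338 bases, so that none of them counted as short by the limit above. In the 10 samples with intact Tyrobp, the 2 adaptors varied together (r = 0.94, permutation p = 2e-04, adjusted p = 0.000920; rho = 0.96, permutation p = 4e-05; r = 0.90 without the 2 farthest). Tyrobp itself was at 452, 395, 475, 239 and 196 CPM in WT and thus showed the same 3 high and 2 low samples. Tyrobp has only 667 exonic bases, and the short-transcript level of these WT samples was 5.42, 5.09, 5.53, 4.60 and 4.12 in the same order. The part of that level in the relation of the 2 adaptors was not tested.

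Fcgr3, the most abundant Fc receptor transcript, was at 614, 642, 750, 380 and 384 CPM in WT and at 575, 542 and 435 CPM in Tyrobp-KO. It was at 432, 393, 376, 416 and 548 CPM in Q175 and at 371, 484, 418, 462 and 407 CPM in Q175;Tyrobp-KO. The groups overlapped in all 4 comparisons of 2 groups. The 2 effects of Tyrobp deletion were near 0, at -0.03 ± 0.28 on the WT background and -0.02 ± 0.14 on Q175, with intervals of -0.65 to 0.60 and -0.33 to 0.30. Q175 against WT gave -0.32 ± 0.23 (adjusted p = 0.981) and Q175;Tyrobp-KO against Tyrobp-KO -0.29 ± 0.14 (95% CI -0.62 to 0.03; adjusted p = 0.419). The genes most like it included Ppt1 (r = 0.96), a lysosomal enzyme, and Mcfd2 (r = 0.95).

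Fcgr1, the high-affinity receptor, was the most even of the 6 genes in WT, at 173, 189, 178, 164 and 160 CPM (coefficient of variation 6.67%), and was at 210, 186 and 146 CPM in Tyrobp-KO. In Q175 it was at 174, 99.7, 138, 119 and 169 CPM, and in Q175;Tyrobp-KO at 137, 198, 172, 200 and 191 CPM. Q175;Tyrobp-KO was higher than Q175 in 21 of 25 sample pairs, with a log2 fold change of 0.36 ± 0.17 (95% CI -0.02 to 0.74; adjusted p = 0.533), and the groups overlapped. Scaling by microglial markers took it to 0.11. Q175 against WT gave -0.28 ± 0.19 (95% CI -0.68 to 0.12; adjusted p = 0.967), with 5 of 25 pairs higher in Q175. The mean effect of Tyrobp deletion was 0.21 ± 0.12 (95% CI -0.04 to 0.47; adjusted p = 0.647). The genes most like it were Lgmn (r = 0.94), a lysosomal protease, Ifngr1 (r = 0.92), a chain of the receptor for interferon gamma, and Irf9 (r = 0.92), a transcription factor of the interferon response.

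Fcgr4, which binds IgG2a and IgG2b and is abundant on monocytes and neutrophils, was the lowest of the set. It was at 17.4, 11.6, 17.2, 7.13 and 4.28 CPM in WT, which is 79 to 311 counts, and at 20.1, 6.19 and 18.6 CPM in Tyrobp-KO. It was at 8.55, 11.5, 5.65, 12.7 and 16.9 CPM in Q175 and at 5.27, 9.42, 5.94, 8.96 and 7.18 CPM in Q175;Tyrobp-KO. The double mutant had no sample above 9.42 CPM, but each other group reached below that level, and the groups overlapped. The log2 fold change was -1.05 ± 0.36 against Tyrobp-KO (95% CI -1.86 to -0.23; adjusted p = 0.307) and -0.59 ± 0.28 against Q175 (95% CI -1.20 to 0.02; adjusted p = 0.533), the latter between -0.89 and -0.37 under other settings. The genes most like it were Bcl2a1a (r = 0.94), a survival factor of the BCL2 family, Clec5a (r = 0.93), a receptor that uses TYROBP, and Clec2d (r = 0.93).

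Markers of other myeloid cells were also lower in Q175;Tyrobp-KO than in Tyrobp-KO in most pairs of samples, without passing the test. The mean level of 10 monocyte and neutrophil markers, none of them at 0 in all samples, was 4.04 to 7.79 CPM in Tyrobp-KO and 1.48 to 5.44 CPM in Q175;Tyrobp-KO (1 of 15 pairs higher in the latter, exact permutation p = 0.0714, adjusted p = 0.514). Against Q175, in contrast, 17 of 25 pairs were higher in Q175;Tyrobp-KO (log2 difference 0.11, exact permutation p = 0.730, adjusted p = 0.794). Of these 10 markers, 1 was at 1 CPM or more in all 18 samples, and the neutrophil marker Ly6g reached at most 1.31 CPM. The mean of 10 markers of border-associated macrophages was 2.77 to 3.25 CPM in Tyrobp-KO and 1.69 to 2.54 CPM in Q175;Tyrobp-KO (0 of 15 pairs, exact permutation p = 0.0357, adjusted p = 0.321). Tyrobp-KO was also above WT in 15 of 15 pairs (exact permutation p = 0.0357, adjusted p = 0.321). Against Q175, 7 of 25 pairs were higher in Q175;Tyrobp-KO (log2 difference -0.29, exact permutation p = 0.175, adjusted p = 0.629). Only 2 of these 10 markers were at 1 CPM or more in all 18 samples, Mrc1 at 4.46 to 20.8 CPM and Stab1 at 200 to 610 CPM. Their part in the values of Fcgr4 and Fcer1g was not tested.

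Fcgr2b, the inhibitory receptor, was at 204, 199, 208, 157 and 155 CPM in WT and at 196, 181 and 168 CPM in Tyrobp-KO. It was at 172, 134, 134, 136 and 194 CPM in Q175 and at 129, 185, 163, 178 and 163 CPM in Q175;Tyrobp-KO. The groups overlapped throughout. The mean effect of Tyrobp deletion was 0.03 ± 0.11 (95% CI -0.20 to 0.27; adjusted p = 0.960), and Q175 against WT gave -0.23 ± 0.18 (95% CI -0.62 to 0.15; adjusted p = 0.999). The genes most like it were Casp8 (r = 0.93), an initiator caspase, Cd81 (r = 0.90), a tetraspanin, and Havcr2 (r = 0.90), which encodes TIM-3.

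Fcgrt, the neonatal receptor, was at 24.1, 41.4, 28.8, 37.7 and 38.8 CPM in WT and at 59.0, 48.5 and 38.1 CPM in Tyrobp-KO. It was at 45.5, 18.6, 30.9, 30.1 and 43.2 CPM in Q175 and at 34.9, 32.4, 37.7, 44.4 and 45.3 CPM in Q175;Tyrobp-KO. Tyrobp-KO samples were higher than WT in 13 of 15 pairs, with a log2 fold change of 0.58 ± 0.24 (95% CI 0.05 to 1.11; adjusted p = 0.687), and the mean effect was 0.36 ± 0.16 (adjusted p = 0.521). Scaling by microglial markers took these values to 0.22 and 0.11. The unadjusted p was under 0.05 in both, as it was for 6.82% and 9.19% of all genes. Fcgrt lies 14.7 Mb from Tyrobp on chromosome 7, a distance at which DNA of the strain in which a gene was targeted can still be carried along. Of the 409 genes tested within 15 Mb of Tyrobp, Fcgrt included and Tyrobp left out, 7 were called for the mean effect (1.71%, against 0.199% of all genes) and 76 had p under 0.05 (18.6%), and the part of this neighbourhood in the values of Fcgrt was not tested. The genes most like Fcgrt included Eif4ebp1 (r = 0.93) and Cfl1 (r = 0.93), which encodes cofilin.

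B2m, the light chain that FCGRT needs, did not follow Fcgrt over the 18 samples (r = -0.26, permutation p = 0.305; rho = -0.15, permutation p = 0.565; r = -0.13 without the 2 farthest). It was at 952 ± 407 CPM in WT, 967 ± 295 CPM in Tyrobp-KO, 806 ± 278 CPM in Q175 and 558 ± 102 CPM in Q175;Tyrobp-KO (SD). Its log2 fold change in Q175;Tyrobp-KO against Tyrobp-KO was -0.81 ± 0.22 (adjusted p = 0.291). The ratio of Fcgrt to B2m per exonic kb was 0.0295 ± 0.00717 in Q175;Tyrobp-KO and 0.0192 ± 0.00989 in Q175 (20 of 25 pairs higher in the former, exact permutation p = 0.0794, adjusted p = 0.357 over 20 ratio tests). B2m also fell under the limit for short transcripts given above. The Q175 samples with ratios of 0.00864, 0.0131 and 0.0153 had short-transcript levels of 5.32, 5.50 and 5.15. Those with 0.0322 and 0.0268 had levels of 4.82 and 4.41. In Q175;Tyrobp-KO the lowest ratio, 0.0183, came with the lowest level, 4.33. The part of the short-transcript level in this ratio and in the values of B2m was not tested.

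Ratios within a sample do not depend on library size, and 5 of them were compared. Fcgr1 relative to the inhibitory Fcgr2b was 2.37, 2.39, 2.36, 2.502 and 2.63 in Q175;Tyrobp-KO and 2.26, 1.66, 2.31, 1.95 and 1.95 in Q175. All 25 of 25 sample pairs were higher in Q175;Tyrobp-KO, with a log2 difference of 0.28 and exact permutation p = 0.00794, the smallest that 5 samples against 5 allow, and this did not pass adjustment over 20 tests (adjusted p = 0.159). The same ratio in Tyrobp-KO against WT differed by 0.06 (10 of 15 pairs, exact permutation p = 0.5). Leaving out each sample in turn gave 0.21 to 0.33 in Q175;Tyrobp-KO against Q175. The Q175 samples with ratios of 1.66, 1.95 and 1.95 had short-transcript levels of 5.32, 5.50 and 5.15. Those with 2.26 and 2.31 had levels of 4.82 and 4.41, and the Q175;Tyrobp-KO samples lay between 4.33 and 5.08. The part of the short-transcript level in this ratio was not tested.

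The other ratios overlapped between groups. Fcgr3 relative to Fcgr2b was 9.83 ± 1.67 in WT, 9.46 ± 0.71 in Tyrobp-KO, 9.42 ± 0.66 in Q175 and 8.77 ± 0.46 in Q175;Tyrobp-KO (SD), so that the commonest activating receptor stayed within 8.08 and 11.999 times the inhibitory one per exonic kb in all samples. The size of each ratio to Fcgr2b depends on the length used, as its exons cover 5790 bp and its principal transcript 3544 bp. Per principal kb the means over all samples were 356 CPM for Fcgr3, 64.5 CPM for Fcgr1 and 47.9 CPM for Fcgr2b. Fcgr4 relative to Fcgr2b was 0.206 ± 0.0287 in Q175;Tyrobp-KO and 0.332 ± 0.110 in Q175 (log2 difference -0.63, exact permutation p = 0.0714, adjusted p = 0.357). The adaptor relative to the sum of Fcgr1, Fcgr3 and Fcgr4 was 0.725 ± 0.0686 in Q175;Tyrobp-KO and 0.956 ± 0.207 in Q175, with 4 of 25 pairs higher in the former (log2 difference -0.38, exact permutation p = 0.0635, adjusted p = 0.357). In Tyrobp-KO it was 0.735, 0.807 and 1.37, and in WT 0.994, 0.742, 0.924, 0.714 and 0.649, so that a single Tyrobp-KO sample, replicate 20, stood above all others. Replicate 20 also had the highest short-transcript level of all samples (5.90), and the part of that level in this ratio was not tested.

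**Figure D5:**
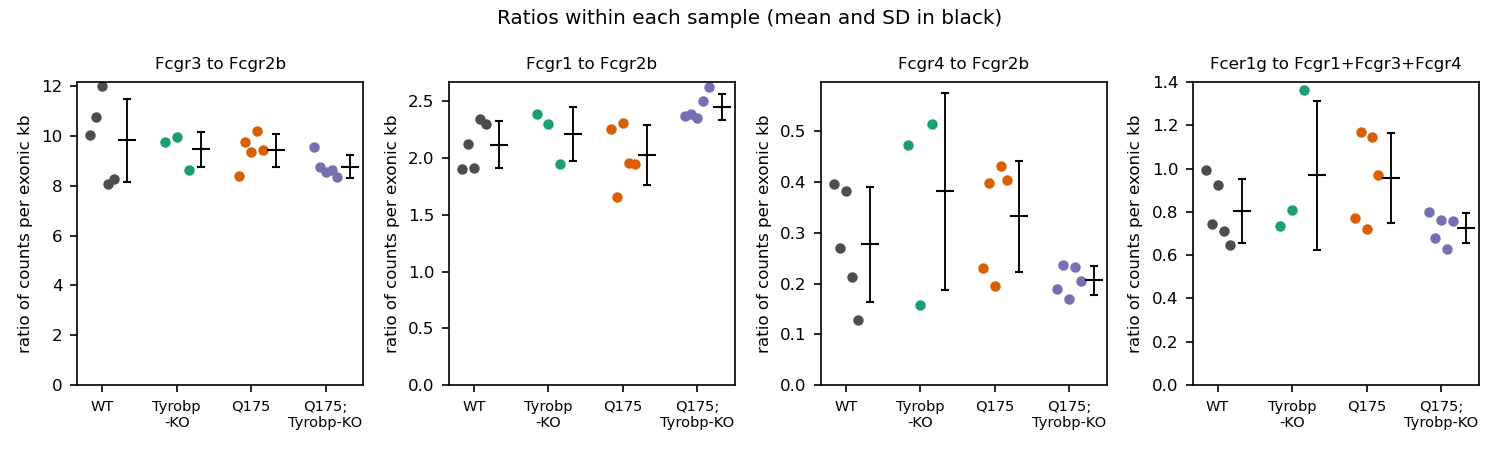
Ratios of counts per exonic kb within each sample for Fcgr3, Fcgr1 and Fcgr4 over Fcgr2b and for Fcer1g over the sum of the 3 activating receptors, by group on axes from 0, with mean and SD. All 5 Q175;Tyrobp-KO samples lie above all 5 Q175 samples for Fcgr1 over Fcgr2b (25 of 25 pairs, adjusted p = 0.159), and the other ratios overlap.

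Across the 18 samples the genes did not vary as 1 block. Fcgr2b and Fcgr3 varied together most closely (r = 0.88, permutation p = 1e-05, adjusted p = 7.67e-05; rho = 0.97, permutation p = 1e-05; r = 0.87 without the 2 farthest), and they share a small part of their sequence. Fcer1g varied with Fcgr4 (r = 0.87, permutation p = 1e-05, adjusted p = 7.67e-05; rho = 0.87, permutation p = 5e-05; r = 0.83 without the 2 farthest). Its r with Fcgr3 was 0.73 (permutation p = 0.000840, adjusted p = 0.00322; rho = 0.73, permutation p = 0.00104; r = 0.75 without the 2 farthest). With Fcgr1, which also needs the adaptor, it showed no such relation (r = -0.03, permutation p = 0.903; rho = 0.05, permutation p = 0.844; r = -0.03 without the 2 farthest). Fcgr1 instead varied with Fcgr2b (r = 0.78, permutation p = 1e-04, adjusted p = 0.000575; rho = 0.71, permutation p = 0.00124; r = 0.73 without the 2 farthest). Within groups these values were 0.86, 0.83, 0.73, 0.00 and 0.81 in the same order, and the samples differed in the short-transcript level described above.

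Neighbouring genes of the pathway were read from fixed lists, none of which had a gene called at 10% FDR in any comparison. Of 12 other Fc receptor and Fc receptor-like genes, 5 passed the filter over all 18 samples. Fcrls, a microglial Fc receptor-like gene, was high at 501 to 1065 CPM, while Fcer1a, Fcer2a, Fcmr, Fcamr and Pigr never exceeded 3 counts. Besides B2m, the smallest p belonged to Fcrl1 (-0.33 ± 0.17) and Trim21, the cytosolic Fc receptor (-0.35 ± 0.21), both in Q175 against WT. Of 8 other receptors that pair with FCER1G, 3 passed the filter, and Clec4e, Clec4d and Cd300ld, which had the smallest p, had means at or below 1.45 CPM in every group.

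Of 8 receptors that use TYROBP, 5 passed the filter. The smallest p belonged to Clec5a and Trem2 in Q175;Tyrobp-KO against Tyrobp-KO (-0.57 ± 0.15 and -0.42 ± 0.16, adjusted p = 0.291 and 0.326) and to Siglech in Q175;Tyrobp-KO against Q175 (0.41 ± 0.17, adjusted p = 0.533). In Q175;Tyrobp-KO against Tyrobp-KO all 5 were below 0, with a median of -0.57 against -0.01 over all genes, and the 6 Fc genes were also all below 0, with a median of -0.32, although Fcgr1 stood above 0 under scaling by total counts or microglial markers, and 1 of the 5 receptors under these and DESeq2's size factors. The 20 microglial markers stood at the same median of -0.32 there, with 15 of 20 below 0 and 8 with an unadjusted p under 0.05, and the 10 monocyte and neutrophil markers at -1.45. Of 20 genes that signal below activating Fc receptors, 17 were above 0 in Q175;Tyrobp-KO against Q175, with a median of 0.39 against -0.05 over all genes. Scaling by microglial markers moved all genes there to a median of -0.33 and left 12 of the 20 above 0. The 3 with the smallest p there or elsewhere were Pik3ap1, a PI3-kinase adaptor (0.60 ± 0.27), Cbl, a ubiquitin ligase (0.44 ± 0.19), and the SRC-family kinase Fgr, whose mean effect of Tyrobp deletion was -1.14 ± 0.39 (adjusted p = 0.355).

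Of 12 phosphatases and ITIM receptors, Lilrb4a had the smallest p, with a mean effect of Tyrobp deletion of -1.43 ± 0.36 (adjusted p = 0.208), from 11.2 ± 3.08 CPM in WT to 5.01 ± 2.22 CPM in Tyrobp-KO and from 10.4 ± 8.36 CPM in Q175 to 3.23 ± 1.05 CPM in Q175;Tyrobp-KO. Dok3, an inhibitory adaptor, was at 0.58 ± 0.21 for the same effect and Ptpn11, the phosphatase SHP2, at 0.44 ± 0.18 in Q175;Tyrobp-KO against Tyrobp-KO. Of 12 interferon response genes, all 12 were above 0 for the mean effect of Tyrobp deletion, with a median of 0.79 against -0.02 over all genes, and 8 had an unadjusted p under 0.05 against 9.19% of all genes. Scaling by microglial markers left 11 of the 12 above 0, with all genes at -0.31. Rsad2 was at 0.99 ± 0.33 (adjusted p = 0.337) for that effect, and Ifitm3 and Ifit3 at 1.09 ± 0.35 and 1.35 ± 0.47 in Tyrobp-KO against WT (adjusted p = 0.610 for both). Ifit3 was at 26.6 ± 20.7 CPM in Tyrobp-KO (SD, n = 3), and without Tyrobp-KO replicate 20 its difference was 0.60. Fcgr1, known as an interferon-induced receptor, stood at 0.21 ± 0.12 beside them and at -0.072 under scaling by microglial markers.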

How the data were processed

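RNA of CD11b-selected striatal microglia was sequenced after SMART-Seq v4 amplification, and the authors deposited raw counts per Ensembl gene for 18 labelled samples. The submitters' processing notes name STAR and featureCounts, and a genome build of human name, whereas all 55536 identifiers matched mouse GENCODE M21 on GRCm38, which gave symbols, positions and exon lengths. 2 further columns with no label were not used. For each comparison, edgeR 4.0.16 was fitted to the genes reaching 1 CPM in any of its samples (R 4.3.3, TMM scaling, quasi-likelihood test, Benjamini-Hochberg, 10% FDR). DESeq2 1.42.0 was an alternative, as were other scalings, filters, terms for sex and for non-microglial markers, and leaving out each sample. Levels and within-sample ratios (1 added to each count) were compared with two-sided exact permutation tests. The edgeR and DESeq2 tests were checked on simulated data. All 6 genes are named, list genes are those called or else the 3 with the smallest p per list, and genes most alike are the 5 (Fcer1g) or 3 (others) with the highest r, some of which are not reported here. The genes and lists were chosen with earlier results of these data known. Counts carried no molecular identifiers. The labels state that 2 striata, and the study's methods that 1 striatum, made up a sample.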

Additional observations from a re-analysis of the deposited data

How the results depend on the processing

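None of the 6 genes passed 10% FDR in any comparison under any alternative, except in Q175;Tyrobp-KO against Tyrobp-KO, where 1 was called by DESeq2 (Fcer1g) and 2 with the short-transcript level as a term (Fcer1g and Fcgr3), an alternative chosen after seeing the data. Of 780 recomputed fold changes of the 6 genes, 721 kept direction and side of the threshold, 56 changed sign and 3 became called. All sign changes were of values that had not passed the threshold.

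Scaling by microglial markers turned Tyrobp-KO against WT to -0.16 (Fcer1g), -0.25 (Fcgr1) and -0.33 (Fcgr2b), Fcgr2b in Q175;Tyrobp-KO against Q175 to -0.19, Fcgr4 in Q175 against WT to 0.0095, Fcgr1 in Q175;Tyrobp-KO against Tyrobp-KO to 0.14, and the mean effect to -0.072 (Fcgr1) and -0.26 (Fcgr2b). Total counts turned Fcgr3 in Q175;Tyrobp-KO against Q175 to 0.12, its mean effect to 0.042, Fcgr1 in Q175;Tyrobp-KO against Tyrobp-KO to 0.025 and Fcgrt in Q175 against WT to -0.073. Fcgrt in Q175 against WT was also -0.018 by DESeq2, with its size factors and in 1 fit over all groups, -0.030 without a filter and -0.084 with sex as a term. Without a filter, Fcgr3 in Q175;Tyrobp-KO against Q175 was 1.35e-05 and Fcgr1 in Q175;Tyrobp-KO against Tyrobp-KO 0.0064, and in 1 fit Fcgr2b in Tyrobp-KO against WT was -0.022. With sex as a term Fcgr3 was 0.20 in Tyrobp-KO against WT and -0.10 for the interaction, and with the non-microglial score 0.088 and -0.028 (Fcgr2b interaction -0.017). With the short-transcript term the mean effect of Fcgr4 was 0.055. The cause was not tested.

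Leaving out 1 sample at a time gave ranges that cross 0. In Tyrobp-KO against WT they were -0.00031 to 0.26 (Fcgr1), -0.026 to 0.10 (Fcgr2b) and -0.15 to 0.10 (Fcgr3). In Q175 against WT they were -0.26 to 0.062 (Fcer1g), -0.28 to 0.17 (Fcgr4) and -0.13 to 0.17 (Fcgrt). Others were Fcgr3 in Q175;Tyrobp-KO against Q175 (-0.064 to 0.082), Fcgr1 in Q175;Tyrobp-KO against Tyrobp-KO (-0.17 to 0.11), the mean effect of Fcgr3 (-0.11 to 0.051) and Fcgr4 (-0.25 to 0.078) and the Fcgr3 interaction (-0.067 to 0.19). Ratios crossed 0 for Fcgr3 to Fcgr2b in Tyrobp-KO against WT (-0.11 to 0.035) and Q175 against WT (-0.11 to 0.029), Fcgr1 to Fcgr2b in Q175 against WT (-0.12 to 0.00025), the adaptor ratio in Tyrobp-KO against WT (-0.044 to 0.40) and Fcgrt to B2m in Q175 against WT (-0.16 to 0.39).

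Over all genes, edgeR called 4, 2, 0, 0, 37 and 0 genes (Tyrobp-KO against WT, Q175;Tyrobp-KO against Q175, Q175 against WT, Q175;Tyrobp-KO against Tyrobp-KO, mean effect, interaction), DESeq2 168, 41, 234, 680, 204 and 2, and the fit with the short-transcript term 464, 1, 0, 1804, 105 and 0. Without Tyrobp-KO replicate 20, edgeR called 592 genes for the mean effect. No paired analysis was possible because the groups share no replicate numbers. Fcgr4 rests on as few as 79 counts, which limits its precision.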
